A study of Mus musculus with 6 samples.

Results

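The identity of the intestinal epithelium is held by a small set of transcription factors, and the RNA of 8 of them was followed in mouse tumour-model organoids treated with DM-aKG. The genes were taken by name, for their known role: Cdx1, Cdx2, Hnf4a, Hnf4g, Gata4, Gata6, Isx and Prdm1, which are 8 of the 24956 genes in the deposited table, where all were found. The material was intestinal organoids, epithelial cultures grown in organoid medium, made from Apc Min animals. This genotype, shared by both groups, carries a truncating mutation in Apc, a brake on Wnt signalling, and predisposes the gut to tumours. The first group was 3 libraries from organoids given DM-aKG, a dimethyl ester by which α-ketoglutarate enters cells, and the other was 3 libraries from organoids under control treatment. The dose, the duration, the age of the animals, the segment of gut and what the control cultures were given are not stated in the labels. The submitters call the replicates biological without saying whether they are separate animals or cultures of 1 line, so that p-values measure the spread between these samples. The series title places the experiment within a question on Wnt signalling and differentiation.

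CDX2 and its relative CDX1 are homeobox factors that turn endoderm into intestine and keep it from taking on gastric or oesophageal character. HNF4A and HNF4G are nuclear receptors that bind a common site and drive enterocyte genes for fat absorption and the brush border. GATA4 and GATA6 are zinc finger factors, GATA4 marking the proximal small intestine and GATA6 acting along its whole length. ISX is an intestine-specific homeobox repressor that limits vitamin A uptake in mice, and PRDM1 (BLIMP1) is a repressor of the suckling mouse intestine that is switched off at weaning.

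The values are RPKM, reads scaled to gene length and to the size of the library, so levels of different genes can be set side by side. Depth, estimated from the steps between the lowest values of short RNA genes, was about 32690000 to 34300000 reads per library. Markers of the epithelium were abundant in every library: 7 genes summed to 3616 to 4539 RPKM in DM-aKG and 2776 to 2826 RPKM in control libraries. The higher sum in DM-aKG lay mostly in the keratin genes Krt8, Krt18 and Krt19, while Epcam was lower, at 334 ± 7.12 RPKM in DM-aKG and 421 ± 4.48 RPKM in control. Markers of other cells were low. Their sums were 0.31 to 0.79 RPKM in DM-aKG and 0.14 to 0.22 RPKM in control for 10 genes of fibroblasts and muscle, 2.25 to 3.54 and 1.85 to 2.11 RPKM for 12 immune genes, and 0.48 to 0.64 and 0.23 to 0.35 RPKM for 6 endothelial genes, with Dcn, Lum, Col3a1, Cd3g, Cdh5 and Kdr listed at 0 in every library and Ptprc at 0.01 RPKM at most. Not all were silent. Cd68 was at 0.87, 1.88 and 2.31 RPKM in DM-aKG, against 0.75 to 0.93 RPKM in control. Itgam was at 0.92 to 1.23 RPKM in DM-aKG and 0.52 to 0.62 RPKM in control. Pdgfrb, Pecam1 and Tek, all at 0.70 RPKM or less, were also higher in DM-aKG without overlap, whereas Lyz2 was lower without overlap. The part of these markers in the results was not tested. One library in each group stood apart. DM-aKG replicate 1 correlated with the other DM-aKG libraries at r = 0.990 and 0.991 across genes, against 0.997 between those, and control replicate 2 had Adm, a hypoxia-inducible gene, at 13.6 RPKM, against 3.58 and 4.84 RPKM in the other controls. Marker RNA of particular epithelial cells differed between groups too. Olfm4, a marker of stem cells, was at 18.8, 2.94 and 2.59 RPKM in DM-aKG, against 79.7, 103 and 82.5 RPKM in control. The Paneth cell gene Defa17 was at 330, 68.5 and 60.2 RPKM in DM-aKG, against 516, 770 and 566 RPKM in control. For both, DM-aKG replicate 1 lay between the other DM-aKG libraries and the controls, and their part in the results was not tested. Results below are given without these 2 libraries where that changes them. Organoids are mixtures of cell types, and fewer cells with a given RNA cannot be told apart from less of it per cell.

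Of the 8 genes, 4 were lower after DM-aKG (Cdx2, Hnf4a, Gata6 and Cdx1), 2 did not pass the test (Hnf4g and Gata4) and 2 lay below the filter of a mean of 1 RPKM (Isx and Prdm1). Cdx2 had the largest change. Calls were made with limma on log2(RPKM + 0.5) at an adjusted p under 0.05 over all 10852 genes tested. Among all of those, 24.7% were called lower and 30.9% higher. The 6 tested members had a median log2 fold change of -0.31, where the median of all tested genes was 0.02. When each library was centred on the median of its tested genes, 45.5% of all calls were higher in DM-aKG, against 55.6% without centring. Under that scaling 5 of the 6 tested members were lower and 0 higher. Over all 10852 genes it gave 3340 lower and 2790 higher, against 2679 and 3354 without centring. In the 4 called members the groups did not overlap, which was so for 64.2% of all tested genes, 28.9% with DM-aKG lower and 35.3% with DM-aKG higher.

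**Figure D1:**
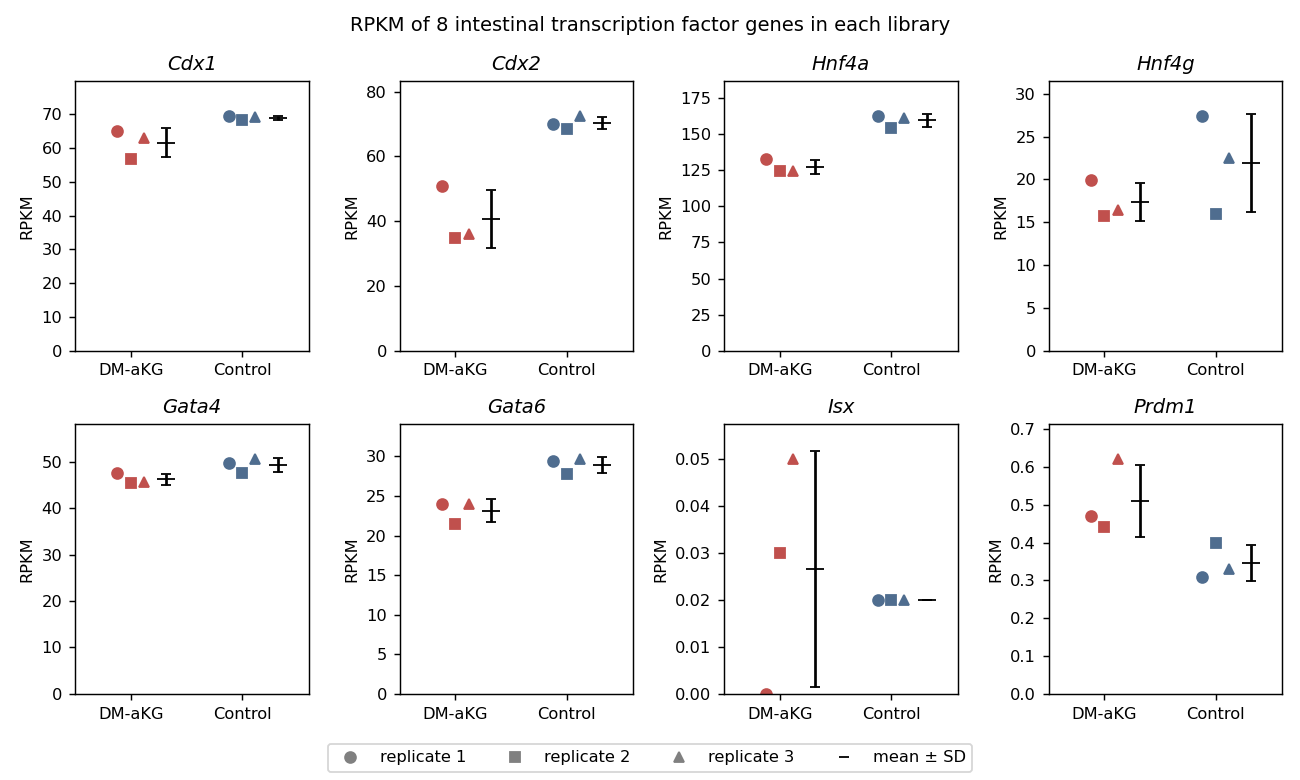
RPKM of each of the 8 genes in every library, with DM-aKG left of control and a separate linear axis from 0 for each gene; symbols mark the replicate and black bars the mean ± SD of 3 libraries. Cdx2 shows the widest gap between groups, at 34.9 to 50.8 RPKM in DM-aKG and 68.4 to 72.4 RPKM in control, while Isx and Prdm1 stay under 1 RPKM.

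Cdx2 was the member that changed most. It stood at 50.8, 34.9 and 36.0 RPKM in DM-aKG replicates 1, 2 and 3, against 70.0, 68.4 and 72.4 RPKM in control replicates 1, 2 and 3. All DM-aKG libraries lay well below all controls, and replicate 1 was the least reduced. The means were 40.6 ± 8.90 RPKM in DM-aKG and 70.3 ± 1.99 RPKM in control (SD, n = 3 each; the same holds for the means that follow). Cdx2 fell by 0.81 ± 0.13 on the log2 scale (SE; 95% interval -1.11 to -0.51; limma, adjusted p = 0.00146). Only 2.51% of all tested genes had a lower log2 fold change. DM-aKG replicate 1 had covered 55.9% of the distance that replicates 2 and 3 lay from the control mean. For the 4195 called genes whose groups do not overlap and that changed by at least 0.25 on the log2 scale, the median of that share was 78.0%. Without DM-aKG replicate 1, Cdx2 was lower by 0.98 on the log2 scale.

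The stretch just before the RefSeq start of Cdx2 is shown because this gene carries the largest change, together with both RefSeq starts of Hnf4a, the most abundant member. The windows are taken from RefSeq on GRCm38.p6 and cover up to 250 bases, read 5′ to 3′ on the strand of the gene. Entries were at hand for 4 of the 8 members (Cdx2, Hnf4a, Isx and Prdm1). Capitals mark matches on either strand to 4 short motifs: TTTATNG for CDX factors, AGATAA for GATA factors, CAAAGTCCA for HNF4 and CTTTGA for TCF factors of the Wnt pathway.
Cdx2, chr5:147307250-147307499, minus strand: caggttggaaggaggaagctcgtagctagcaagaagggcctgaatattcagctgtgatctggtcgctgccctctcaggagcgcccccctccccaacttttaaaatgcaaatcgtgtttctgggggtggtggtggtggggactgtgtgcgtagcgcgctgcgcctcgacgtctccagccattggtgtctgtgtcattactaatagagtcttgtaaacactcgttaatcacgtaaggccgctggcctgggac
Hnf4a upstream start, chr2:163506607-163506810, plus strand: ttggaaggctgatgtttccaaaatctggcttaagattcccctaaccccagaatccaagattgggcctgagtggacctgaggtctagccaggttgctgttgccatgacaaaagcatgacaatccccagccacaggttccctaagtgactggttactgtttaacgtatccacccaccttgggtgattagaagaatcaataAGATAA
Hnf4a downstream start, chr2:163546905-163547154, plus strand: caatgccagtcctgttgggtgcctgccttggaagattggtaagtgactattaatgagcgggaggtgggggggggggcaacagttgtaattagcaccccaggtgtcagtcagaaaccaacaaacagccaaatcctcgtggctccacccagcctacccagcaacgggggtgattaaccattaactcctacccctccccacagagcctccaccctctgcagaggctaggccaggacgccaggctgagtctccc
The Cdx2 window holds no match to these motifs. In GENCODE the gene reaches to 147307270, so the last printed bases of this window lie inside it by that annotation. The window of the upstream Hnf4a start was ended 46 bases short of the RefSeq start, since the annotated gene reaches into it. Its last letters are 1 match to the GATA motif, 46 bases from that start. The match ends at 163506810 and so lies across the GENCODE start of the gene, 163506808. The window of the downstream start, 40.3 kb further on, holds none. Of 32851 such windows of 250 bases in the RefSeq table, 9.99% hold the GATA motif, 9.81% the CDX motif, 13.8% the TCF motif and 0.384% the HNF4 motif. Matches and their absence describe the letters of the windows and no binding was measured. The deposited values are per gene and do not separate the transcripts from the 2 Hnf4a starts.

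Cdx1, which overlaps CDX2 in function and is itself a Wnt target in mice, changed little. It was at 65.0, 56.8 and 63.1 RPKM in DM-aKG, against 69.5, 68.4 and 69.1 RPKM in control. The groups did not overlap, but the highest DM-aKG library came within a few RPKM of the lowest control. Means were 61.6 ± 4.29 RPKM in DM-aKG and 69.0 ± 0.562 RPKM in control, and Cdx1 fell by 0.16 ± 0.05 on the log2 scale (SE; limma, adjusted p = 0.0334). This call was not firm. It was lost on leaving out any single library other than DM-aKG replicate 1 (limma, adjusted p = 0.0529 to 0.0942), and over all 17 alternatives the adjusted p ran over 0.00151 to 0.0974.

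After DM-aKG, Cdx1 RNA exceeded Cdx2 RNA, whereas both were nearly equal in control organoids. The ratio of Cdx1 to Cdx2 within a library was 1.28, 1.63 and 1.75 in DM-aKG, against 0.992, 0.999 and 0.955 in control. Every DM-aKG library had a ratio above 1 and every control library one below it. The log2 ratio differed by 0.65 (exact permutation test, two-sided, p = 0.10, the smallest that 3 against 3 libraries allow). Being a ratio within a library, it is the same under any scaling by 1 factor per library. Together both genes summed to 102 ± 12.4 RPKM in DM-aKG and 139 ± 2.36 RPKM in control. Cdx4, the remaining member of the caudal family, was listed at 0 in all 6 libraries.

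Hnf4a was the most abundant of the 8 genes. Its values were 133, 124 and 125 RPKM in DM-aKG, against 162, 154 and 162 RPKM in control. The groups were tight and far apart, with means of 127 ± 4.61 RPKM in DM-aKG and 159 ± 4.38 RPKM in control. Hnf4a fell by 0.32 ± 0.04 on the log2 scale (SE; 95% interval -0.43 to -0.22; limma, adjusted p = 6.87e-04). It was called lower under all 17 alternatives, with log2 fold changes of -0.38 to -0.28. The antisense gene Hnf4aos, which overlaps part of Hnf4a on the opposite strand, was at most 0.29 RPKM in any library. Whether reads were counted by strand is not stated.

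The control libraries disagreed on Hnf4g. It was at 20.0, 15.7 and 16.4 RPKM in DM-aKG, against 27.4, 15.9 and 22.5 RPKM in control. Control replicate 2 lay among the DM-aKG libraries, while the other 2 controls were above all of them. Means were 17.4 ± 2.28 RPKM in DM-aKG and 21.9 ± 5.73 RPKM in control, with a log2 fold change of -0.30 ± 0.18 (SE; 95% interval -0.72 to 0.11; limma, adjusted p = 0.186). Without control replicate 2 the gene Hnf4g was called lower, with a log2 fold change of -0.51 (limma, adjusted p = 0.0143), and without that library and DM-aKG replicate 1 with -0.61 (adjusted p = 5.05e-04). Over the 17 alternatives its adjusted p ran over 5.05e-04 to 0.526. Control replicate 2 is the library with high Adm, and the part of this in the Hnf4g values was not tested. It was also the lowest control for all 6 tested members, and for 37.0% of all tested genes.

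Per length, Hnf4a outweighed Hnf4g several times in every library. The ratio of Hnf4a to Hnf4g was 6.64, 7.91 and 7.61 in DM-aKG, against 5.93, 9.68 and 7.19 in control. The control ratios enclosed those of DM-aKG, and the log2 ratio differed by -0.02 (exact permutation test, two-sided, p = 1, where the smallest possible was 0.10). Its direction turned without control replicate 2, when the difference was 0.17, and without DM-aKG replicate 1, when it was 0.06. A shift between the HNF4 genes was not detectable with these libraries. Their summed level was 145 ± 6.88 RPKM in DM-aKG and 181 ± 9.97 RPKM in control.

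**Figure D2:**
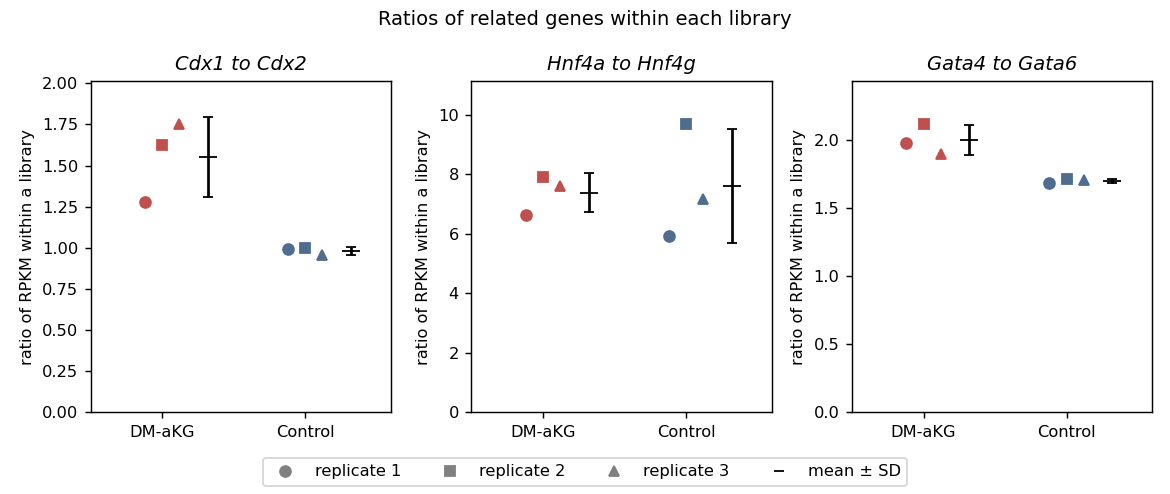
Ratios of RPKM between related genes within each library, DM-aKG left of control, on linear axes from 0; symbols mark the replicate and black bars the mean ± SD of 3 libraries. The ratio of Cdx1 to Cdx2 is 1.28 to 1.75 in DM-aKG and 0.955 to 0.999 in control, whereas the ratios of Hnf4a to Hnf4g overlap between groups.

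The GATA genes differed from each other. Gata6 was at 24.0, 21.4 and 24.0 RPKM in DM-aKG, against 29.4, 27.7 and 29.6 RPKM in control, without overlap. Means were 23.2 ± 1.504 RPKM in DM-aKG and 28.9 ± 1.041 RPKM in control, and Gata6 fell by 0.32 ± 0.06 on the log2 scale (SE; limma, adjusted p = 0.00240). It remained lower under all 17 alternatives.

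Gata4 stood at 47.6, 45.4 and 45.6 RPKM in DM-aKG, against 49.7, 47.6 and 50.5 RPKM in control. The highest DM-aKG library just reached the lowest control. Means were 46.2 ± 1.24 RPKM in DM-aKG and 49.3 ± 1.48 RPKM in control, a log2 fold change of -0.09 ± 0.04 (SE; 95% interval -0.19 to 0.01; limma, adjusted p = 0.0960). Gata4 was called lower under median centring (limma, adjusted p = 0.0216) and under quantile normalization (0.0239). It was called lower as well without DM-aKG replicate 1 (limma, adjusted p = 0.0332). Over the 17 alternatives the adjusted p ran over 0.00396 to 0.350.

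The ratio of Gata4 to Gata6 within a library was 1.98, 2.12 and 1.90 in DM-aKG, against 1.69, 1.72 and 1.70 in control. All DM-aKG ratios were above all control ratios, and the log2 ratio differed by 0.23 (exact permutation test, two-sided, p = 0.10, the smallest possible). Gata5, another GATA gene of the gut epithelium, was at 5.85 ± 0.612 RPKM in DM-aKG and 7.74 ± 0.392 RPKM in control, and Gata5 was called lower (log2 fold change -0.38 ± 0.08, SE; limma, adjusted p = 0.00424). Gata1, Gata2 and Gata3, which are known from blood and other tissues, reached at most 0.03 RPKM.

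**Figure D3:**
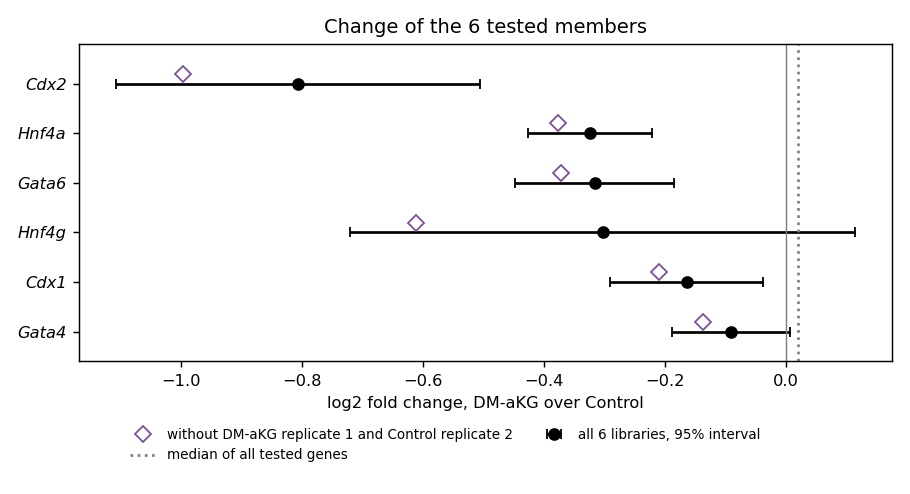
Log2 fold change of DM-aKG over control for the 6 tested members, with 95% intervals from all 6 libraries (black) and the value without DM-aKG replicate 1 and control replicate 2 (open diamonds). The Hnf4g interval spans 0, and its value is -0.30 with and -0.61 without those 2 libraries.

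Isx was barely detected. It was listed at 0.00, 0.03 and 0.05 RPKM in DM-aKG and at 0.02 RPKM in each control. With the estimated depth and a length of 1.79 kb for its annotated exons, this is about 0 to 2.93 reads per library, too few for any comparison. Genes that ISX represses in mice were measurable. Bco1, the enzyme that cleaves β-carotene, was at 4.38 ± 0.0666 RPKM in DM-aKG and 2.29 ± 0.210 RPKM in control (log2 fold change 0.81 ± 0.07, SE; limma, adjusted p = 1.03e-04). Scarb1, a carotenoid and lipid uptake receptor, had a log2 fold change of 0.16 ± 0.08 with overlapping groups (SE; limma, adjusted p = 0.138).

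Prdm1 was low but measurable. It was at 0.47, 0.44 and 0.62 RPKM in DM-aKG, against 0.31, 0.40 and 0.33 RPKM in control, or about 57.0 to 113 reads per library. Every DM-aKG library lay above every control, with means of 0.510 ± 0.0964 RPKM in DM-aKG and 0.347 ± 0.0473 RPKM in control. Below the filter it had no test in the main comparison. With no filter its log2 fold change was 0.25 ± 0.08 (SE; limma, adjusted p = 0.0613), a value that the pseudocount of 0.5 makes smaller than the ratio of the means. Prdm1 is also a gene of plasma cells. Of their markers, Jchain reached 0.01 RPKM at most, and Mzb1 reached 0.07 RPKM at most in either group. A part of plasma cells in the Prdm1 values was not tested.

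Ordered by mean RPKM, DM-aKG organoids had Hnf4a, Cdx1, Gata4, Cdx2, Gata6, Hnf4g, Prdm1 and Isx, where Gata4 and Cdx2 overlapped and no other neighbours did. Control organoids had Hnf4a first, then Cdx2 and Cdx1, whose values overlapped, then Gata4, Gata6 and Hnf4g, with Prdm1 and Isx far below and no overlap between other neighbours. Cdx2 was below Gata4 in 2 of 3 DM-aKG libraries and above it in all 3 controls. In DM-aKG, spread between replicates was widest, among the 6 tested members, for Cdx2, with a coefficient of variation of 21.9%. In control it was widest for Hnf4g, at 26.1%, and narrowest for Cdx1, at 0.815%. DM-aKG replicate 1 was the treated library nearest to the controls in 5 of the 6 tested members (all but Gata6), and in 55.5% of all tested genes.

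The gene with the profile closest to Cdx2 over the 6 libraries was H1f0, a linker histone gene. The measure was the root mean square difference of log2 values after each gene was centred on its own mean, and it was 0.03 for H1f0, 0.05 for Tifa and 0.05 for Mxd4. H1f0 was at 107, 74.5 and 76.5 RPKM in DM-aKG, against 148, 153 and 153 RPKM in control. Like Cdx2, it was lowest in DM-aKG replicates 2 and 3 and intermediate in replicate 1.

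On the mouse assembly GRCm38 (GENCODE M21), Cdx2 lies on chromosome 5 at 147300805 to 147307270 (minus strand) and Hnf4a on chromosome 2 at 163506808 to 163572910 (plus strand). Hnf4g lies on chromosome 3 at 3508030 to 3658052 (plus strand) and Gata4 on chromosome 14 at 63198922 to 63271692 (minus strand). Isx is found on chromosome 8 at 74873173 to 74893506 (plus strand) and Prdm1 on chromosome 10 at 44437177 to 44528501 (minus strand), while Cdx1 and Gata6 are on chromosome 18. All 8 are annotated as protein-coding.

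Other transcription factors that work with these genes in the gut were more often lower than higher. Of 28 listed, 23 were tested, and 2 were higher, 12 lower and 9 not called (all tested genes: 30.9% higher and 24.7% lower), with a median log2 fold change of -0.21. All 3 genes of the FOXA family, pioneer factors of the endoderm, fell. Foxa3, for example, was at 17.1 ± 0.926 RPKM in DM-aKG and 24.3 ± 0.348 RPKM in control (limma, adjusted p = 1.52e-04). Vdr, the vitamin D receptor gene, fell to 45.6 ± 7.07 RPKM in DM-aKG, against 86.6 ± 0.792 RPKM in control (limma, adjusted p = 1.88e-04). Zfpm1 (FOG1), a cofactor that binds GATA proteins, was at 33.8, 22.1 and 24.7 RPKM in DM-aKG, against 51.3, 45.9 and 53.6 RPKM in control. As with Cdx2, DM-aKG replicate 1 was the least reduced, and Zfpm1 fell by 0.91 ± 0.14 on the log2 scale (SE; limma, adjusted p = 0.00127). The 2 that rose regulate lipid and bile acid genes. Creb3l3 was at 24.8 ± 1.02 RPKM in DM-aKG and 13.9 ± 1.40 RPKM in control, and the bile acid receptor gene Nr1h4 rose by 0.50 ± 0.07 on the log2 scale (SE; limma, adjusted p = 5.60e-04).

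Genes known as targets of HNF4 were called in both directions. Of 18 listed and tested, 9 were higher, 2 lower and 7 not called, where 30.9% of all tested genes were higher and 24.7% lower, with a median log2 fold change of 0.15. The apolipoprotein genes split. Apoa4 was at 230.3 ± 16.6 RPKM in DM-aKG and 431 ± 41.8 RPKM in control (limma, adjusted p = 1.04e-04), and Apoc3 was the other that fell. Apob stood at 60.6 ± 3.87 RPKM in DM-aKG and 38.3 ± 2.79 RPKM in control (limma, adjusted p = 1.78e-04), and Apoc2 at 113 ± 3.96 and 73.2 ± 6.22 RPKM. The brush border genes Cdhr2, Cdhr5, Myo7b and Vil1 were among those that rose. Ush1c and Espn, also of the brush border, were not called, with log2 fold changes of -0.08 and 0.14 and overlapping groups. Without DM-aKG replicate 1 and control replicate 2, 10 were higher and 4 lower.

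Of 10 known CDX targets, 4 were higher, 3 lower and 3 not called, with a median log2 fold change of -0.02. These counts are near the shares of all tested genes, 30.9% higher and 24.7% lower, and are no result about the list. Heph, a copper-containing iron oxidase, rose by 0.43 ± 0.07 on the log2 scale (SE; limma, adjusted p = 0.00128), and Gpa33, an epithelial surface antigen, rose to 124 ± 5.73 RPKM in DM-aKG, against 100.1 ± 0.825 RPKM in control. The intestinal cadherin Cdh17 rose by 0.36 ± 0.08 on the log2 scale (SE; limma, adjusted p = 0.00668). The mucin gene Muc2 fell by 1.87 ± 0.15 on the log2 scale (SE; limma, adjusted p = 5.51e-05), and Alpi and Mep1a were lower too. The disaccharidase gene Sis had a log2 fold change of -0.02 with overlapping groups. Without DM-aKG replicate 1 and control replicate 2, 4 were higher and 5 lower.

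Loss of CDX2 in the mouse gut is known to release gastric and squamous genes, and such genes were counted beside it. Of 17 gastric genes, 12 lay below the filter, Sox2 and Gkn2 at 0 in every library. Of the 5 tested, Anxa10, Ctse, Tff1 and Vsig1 rose and Pgc was not called. Among all tested genes, 30.9% were higher and 24.7% lower. The list was chosen with earlier results of these data known, so its count gives no independent support, and a part of Cdx2 in it was not tested. Tff1, a trefoil factor of the stomach surface, was at 41.1, 19.1 and 22.3 RPKM in DM-aKG, against 7.08, 6.18 and 7.13 RPKM in control (limma, adjusted p = 5.81e-04). Anxa10 was at 101, 76.8 and 73.9 RPKM in DM-aKG, against 26.0, 17.4 and 22.9 RPKM in control (limma, adjusted p = 8.14e-05). Ctse, the aspartic protease cathepsin E, was at 7.65, 4.14 and 4.12 RPKM in DM-aKG, against 1.17, 0.880 and 0.920 RPKM in control (limma, adjusted p = 2.78e-04). All 3 genes were highest in DM-aKG replicate 1, the treated library that stood apart. Their relation to Cdx2 was not tested. Ctse and Vsig1 passed the filter through their DM-aKG values. Below it, Cldn18, a gastric tight junction gene, was at 0.58 to 0.62 RPKM in DM-aKG and 0.08 to 0.15 RPKM in control, whereas Gkn3 was at 0.00 to 0.12 and Tff2 at 0.00 to 0.31 RPKM in DM-aKG, against 0.71 to 0.99 and 0.48 to 1.30 RPKM in control. Muc5ac and Muc6, the gastric mucin genes, reached at most 0.03 RPKM.

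Of 13 squamous genes, 10 lay below the filter, among them Trp63, the regulator of squamous epithelium, at no more than 0.01 RPKM. Krt5, a basal cell keratin, was at 0.20 to 0.38 RPKM in DM-aKG and at most 0.01 RPKM in control. The 3 tested were higher, where 30.9% of all tested genes were. This list too was chosen with earlier results of these data known, so its count gives no independent support. The desmosomal genes Pkp1 and Dsg3 rose by 0.74 ± 0.05 and 2.99 ± 0.36 on the log2 scale (SE; limma, adjusted p = 2.83e-05 and 3.92e-04), and the cornified envelope gene Sprr1a by 2.81 ± 0.58 (adjusted p = 0.00475). Dsg3 passed the filter through its DM-aKG values. Dsg3 was highest in DM-aKG replicate 1, at 11.4 RPKM, and Sprr1a lowest there, at 10.5 RPKM, against 55.0 and 57.6 RPKM in replicates 2 and 3.

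Genes that mark segments of the gut were read beside Gata4, which keeps ileal genes off in the proximal intestine of mice. Of 11 proximal genes, 3 were higher, 3 lower and 5 not called, with a median log2 fold change of -0.05. These counts are near the shares of all tested genes, 30.9% higher and 24.7% lower, and are no result about the list. Fabp1 rose to 976 ± 75.0 RPKM in DM-aKG, against 654 ± 16.3 RPKM in control (limma, adjusted p = 2.64e-04). Without DM-aKG replicate 1, 3 were higher and 5 lower. Of 8 ileal genes, 5 were tested, with 4 higher and 1, Clec2h, not called (all tested genes: 30.9% higher). Clec2h was called lower without DM-aKG replicate 1. The bile acid exporter subunit gene Slc51b was at 5.94 ± 0.240 RPKM in DM-aKG and 2.98 ± 0.495 RPKM in control (limma, adjusted p = 3.21e-04), and the ileal bile acid transporter gene Slc10a2 at 1.90 ± 0.267 and 0.920 ± 0.211 RPKM (adjusted p = 0.00240). Fgf15, a hormone induced by bile acids, was at 2.03 ± 1.36 RPKM in DM-aKG and 0.263 ± 0.0306 RPKM in control, and highest in DM-aKG replicate 1, at 3.59 RPKM. Slc10a2, Slc51a and Fgf15 passed the filter through their DM-aKG values, so the count of higher ileal genes is no result about the list. With a filter of a mean of at least 3 RPKM, 1 ileal gene was higher. Fabp6, the most used ileal marker, was at 0.06 RPKM at most. Of 8 colonic genes, 3 were tested, and Slc37a2 was the 1 called, higher in DM-aKG (limma, adjusted p = 0.0416). That call was lost without DM-aKG replicate 1 (adjusted p = 0.0784) or replicate 2 (0.0583), and without control replicate 2 (0.127) or replicate 3 (0.102). Mettl7b and Slc26a3 were not called. Car1, a colonic carbonic anhydrase gene, was listed at 0 throughout.

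Genes of vitamin A handling, Bco1 among them, were called in both directions. Of 24 listed, 16 were tested, with 6 higher, 3 lower and 7 not called, and a median log2 fold change of 0.07. These counts are near the shares of all tested genes, 30.9% higher and 24.7% lower, and are no result about the list. Aldh1a1, which makes retinoic acid, was at 37.5 ± 1.23 RPKM in DM-aKG and 7.32 ± 1.13 RPKM in control (limma, adjusted p = 3.47e-06). Rdh10, a retinol dehydrogenase, was at 34.4 ± 1.70 and 16.7 ± 1.74 RPKM in DM-aKG and control (limma, adjusted p = 4.61e-05), and the retinoic acid receptor gene Rarg at 3.18 ± 0.0819 and 1.37 ± 0.0611 RPKM (adjusted p = 4.01e-05). Dhrs9, another of the 6, passed the filter through its DM-aKG values. The 3 that fell were Rara, Rbp4 and Rdh11. Without DM-aKG replicate 1 and control replicate 2, 7 were higher and 6 lower.

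PRDM1 in mice sustains the suckling programme and holds back genes of the weaned gut. Of 9 suckling genes, 6 were tested, with 0 higher, 4 lower and 2 not called, and a median log2 fold change of -0.25. Among all tested genes, 30.9% were higher and 24.7% lower. Ass1, an enzyme of arginine synthesis, fell to 3.54 ± 0.942 RPKM in DM-aKG, against 12.8 ± 1.35 RPKM in control (limma, adjusted p = 1.34e-04). The lysosomal galactosidase gene Glb1 fell by 0.47 ± 0.06 and Asl by 0.23 ± 0.05 on the log2 scale (SE; limma, adjusted p = 6.92e-04 and 0.00592). Below the filter, Cubn went the other way, at 0.37 to 0.51 RPKM in DM-aKG and 0.17 to 0.22 RPKM in control. Dab2 and Lrp2 were at 0.01 RPKM or less. With no filter, 1 suckling gene was called higher. Of 5 weaned genes, Arg2, an arginase, rose to 43.5 ± 2.78 RPKM in DM-aKG, against 20.7 ± 4.02 RPKM in control (limma, adjusted p = 4.19e-04), and the other 4 (Sis, Treh, Mgam and Slc2a5) were not called.

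**Figure D4:**
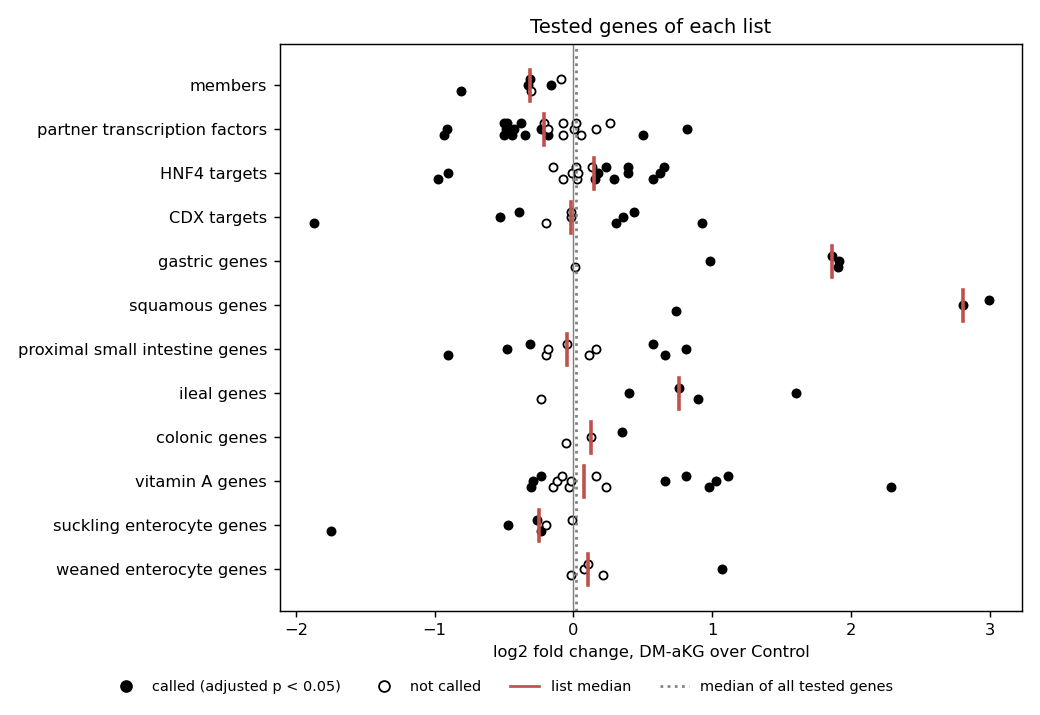
Log2 fold change of DM-aKG over control (x axis) for each tested gene of the 8 members and of the lists read beside them (rows); filled points passed limma at an adjusted p under 0.05, open points did not, red bars are list medians and the dotted line is the median of all tested genes. Members and partner factors lie mostly left of 0, whereas HNF4 and CDX targets lie on both sides.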

How the data were processed

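The authors deposited RPKM with 2 decimals, 1 column per sample, for 24956 gene symbols; the file holds no read counts. The tools named, per the submitters' processing notes, are Partek, HISAT2 2.0.4 and CASAVA 1.8, with the build mm10. How multiply mapped reads were counted, the strand and the annotation are not stated there. RPKM divides by the reads of the library, so abundant genes that change shift all others.

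Columns were matched to samples by title. Values were taken as log2(RPKM + 0.5), genes with a mean of at least 1 RPKM over 6 libraries were kept (10852), and DM-aKG was tested against control in limma 3.58.1 under R 4.3.3 (mean-variance trend, two-sided, Benjamini-Hochberg adjustment over all tested genes, threshold 0.05). Fold changes on this scale understate the change of low genes. The procedure was tested on simulated data with independent normal noise for each gene. No simulated library stood apart, so that test does not cover libraries such as DM-aKG replicate 1 and control replicate 2. Ratios of related genes used exact permutation over libraries. Short RNA genes (miRNA and snoRNA, up to 150 bases) gave the depth estimate, set so that as many of their values as possible stood at 1 read; of the 34 to 40 other low values per library, 90.0% to 94.4% were then whole within 0.05 reads. Reads per gene used GENCODE exon lengths and cover counting error only.

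All 8 members are named, with the 3 genes of smallest p in each list, any antisense gene of a member, and the 3 genes most like Cdx2. Others were chosen after their values were seen. Members and lists were chosen with earlier results of these data known. Figures were drawn in Python 3.11.15. A result on a listed gene is not reported here.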

Additional observations from a re-analysis of the deposited data

How the results depend on the processing

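Hnf4a, Cdx2 and Gata6 stayed lower and past the threshold under all 17 alternatives run (pseudocount, filter, scaling, variance model, array weights, replicate block and omitted libraries). The count of members called lower was 3 to 6, against 4, and 0 were higher throughout. Without single libraries it was 3 to 5, and over all genes 2689 to 3674 were higher and 2059 to 3188 lower. The Cdx1 call (limma) was lost with no filter (-0.16, adjusted p = 0.0522), with an equal sum per library (-0.12, adjusted p = 0.0974) and with no mean-variance trend (-0.16, adjusted p = 0.0506), and its value ranged over -0.20 to -0.11 without single libraries and was -0.21 without both DM-aKG replicate 1 and control replicate 2. Gata4 became lower under median centring (-0.14), quantile normalization (-0.15), array weights (-0.13) and without DM-aKG replicate 1 and control replicate 2 (-0.14), and ranged over -0.12 to -0.074 without single libraries. Hnf4g became lower with array weights (-0.45) and without those 2 libraries (-0.61), and ranged over -0.51 to -0.13 without single libraries. The difference in the ratio of Hnf4a to Hnf4g ranged over -0.18 to 0.17 without single libraries and was 0.25 without those 2. Slc26a3, not called at -0.05, turned to 0.01 without DM-aKG replicate 2 or control replicate 1 and to 0.031 without DM-aKG replicate 3, but was called lower at -0.29 without the 2 libraries. Slc2a5, not called at 0.21, ranged up to 0.29 without single libraries and turned to -0.012 without the 2. The cause of these changes was not tested. In lists, no filter on low values gave 6 squamous genes higher in place of 3, with more genes tested. The same setting gave 2 gastric genes lower in place of 0, beside 5 higher in place of 4. It also gave 1 suckling gene higher and 1 colonic gene lower, each in place of 0. A mean of at least 3 RPKM gave 1 ileal gene higher in place of 4, with fewer genes tested. Quantile normalization gave 4 HNF4 targets lower in place of 2, and array weights 5 proximal genes lower in place of 3 and 6 vitamin A genes lower in place of 3.

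Same-numbered libraries did not deviate together (correlations of -0.08, -0.11 and 0.01). With 3 libraries a group this cannot exclude that the numbers pair the samples, and the labels do not say. With a replicate block, 5 members were lower in place of 4, as Hnf4g was called (-0.30; limma, adjusted p = 0.0383), and 4 partner factors were higher in place of 2. Over all genes the block gave 3206 higher and 2542 lower, against 3354 and 2679. Depth limits Isx, at under 3 reads per library, and with 3 libraries a group the permutation tests of ratios could not pass 0.05.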
